A study of Homo sapiens with 6 samples.

Results

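Oxidative phosphorylation is carried out in the inner mitochondrial membrane by complexes I to V. The subunit genes of these complexes were taken from the array as the genes whose symbol begins with NDUFA, NDUFB, NDUFC, NDUFS or NDUFV and a digit, with UQCR, with COX4 to COX8 or with ATP5, or that encode a succinate dehydrogenase subunit; pseudogenes were left out. A probe set counted only if the platform annotation gave it a single gene symbol, and of several probe sets of a gene the one with the highest mean was used. The rule found 76 of the 19775 genes with a symbol of their own on the array. Complex I gave 32 genes, complex II 3, complex III 6, complex IV 17 and complex V 18. These genes had 150 probe sets, with 1 for 32 genes and up to 7 for the others. The rule used symbols and mean level only, not the difference between groups, although earlier results of these data were known when the members were chosen.

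Cells of the human line MDA-MB-231, derived from a triple-negative breast cancer, were treated for 48 h in culture medium with serum with 50 µM TCI04, a compound that the labels name only by this code, or with PBS, a buffered saline, as the control. Each group had 3 Affymetrix arrays, and the values are MAS5 signals, a brightness per probe set on a linear scale that the authors had scaled within each array. Whether each array had a culture of its own is not in the labels; p-values therefore rest on the spread from array to array, which may be technical. All cells are of 1 established line.

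Complex I passes electrons from NADH to ubiquinone, and complex II passes them from succinate. Complex III moves them on to cytochrome c and complex IV to oxygen, and complexes I, III and IV pump protons as they do so. Complex V, ATP synthase, lets the protons back and makes ATP. The genes described here lie in the nucleus, and their proteins are imported into the mitochondrion and joined there with subunits encoded by mitochondrial DNA. Nuclear respiratory factor 1 (NRF1), ETS family factors such as the GA-binding protein, and YY1 are known regulators of many of them.

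Of the 76 members, 65 had a promoter window in the RefSeq table (GRCh38.p14), from 250 bases before to 50 bases after the gene's start. The letters searched, on both strands, were GCGCANGCG for NRF1, CCGGAAG for ETS factors, AANATGGC for YY1 and TATAAA for the TATA box. A gene with several windows was counted once if any window held the letters, and matches of different motifs were counted whether or not they overlapped. The NRF1 letters were in 22 of 65 members (33.8%) and in 12.5% of all 15843 protein-coding genes with a window. The ETS letters were in 19 members (29.2%) and in 16.5% of all genes. The YY1 letters were in 23 members (35.4%) and in 9.67% of all genes, and those of the TATA box in 7 members (10.8%) and in 12.4% of all genes. At least 1 of the first 3 motifs was found in 45 members (69.2%), against 32.5% of all genes. By complex, this share was 19 of 30 in complex I, 2 of 2 in complex II, 4 of 5 in complex III, 9 of 14 in complex IV and 11 of 14 in complex V. The genes compared with were not matched to the members for base composition or signal. These are matches of letters and do not show that a factor binds there.

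The promoter stretches that hold the most matches in complexes II, III and V are given, to show how these letters are laid out before the start of a subunit gene. They run 5′ to 3′ on the gene's strand, with matches in capitals. That of SDHA is on the plus strand at chr5:218148-218315, that of UQCR11 on the minus strand at chr19:1605463-1605585, and that of ATP5ME on the minus strand at chr4:674340-674501.
SDHA: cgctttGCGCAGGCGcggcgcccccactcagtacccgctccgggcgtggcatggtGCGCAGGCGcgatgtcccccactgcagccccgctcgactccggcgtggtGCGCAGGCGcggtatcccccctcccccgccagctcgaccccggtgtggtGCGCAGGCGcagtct
UQCR11: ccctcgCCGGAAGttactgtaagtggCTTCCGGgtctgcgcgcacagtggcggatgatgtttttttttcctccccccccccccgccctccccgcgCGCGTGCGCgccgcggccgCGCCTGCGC
ATP5ME: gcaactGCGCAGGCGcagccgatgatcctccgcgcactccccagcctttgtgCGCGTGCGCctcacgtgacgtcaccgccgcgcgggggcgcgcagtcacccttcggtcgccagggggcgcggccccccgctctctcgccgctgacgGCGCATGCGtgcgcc
In SDHA, which encodes the flavoprotein of succinate dehydrogenase, 4 copies of the NRF1 letters follow each other at a spacing of 49 bases, the last of them starting 19 bases before the gene's start. UQCR11, a small subunit of complex III, has 2 ETS matches in opposite orientation and, closer to the start, 2 NRF1 matches. ATP5ME, the e subunit in the membrane part of ATP synthase, has 3 NRF1 matches in its stretch. Its full window also held 1 ETS match. The 3 genes differed little between groups: the log2 fold change (TCI04 over PBS) was -0.06 for SDHA, -0.13 for UQCR11 and 0.07 for ATP5ME, and none passed the test described next.

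No subunit gene passed the test for a difference between TCI04 and PBS. The test was limma's moderated test on log2(signal + 10.96), with p-values adjusted over all 32746 probe sets above a filter on low signals, and the threshold was an adjusted p of 0.05. Of the 76 members, 71 were above the filter and 0 of these 71 passed, with a smallest adjusted p of 0.697; over the whole table, 1 of 32746 probe sets passed (0.00305%). At an unadjusted p under 0.05, 2 members were lower with TCI04, as were 4.11% of all 13679 tested genes, and 2 were higher, as were 2.89% of all genes. The log2 fold changes of the 71 members lay between -0.28 and 0.24 with a median of -0.01, and the median of all 13679 genes was 0.00. The mean was lower with TCI04 for 38 members and higher for 33; of all genes, 50.7% were lower.

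How large a difference the arrays could have missed under the scaling used is described by the 95% intervals, which reflect only the spread between arrays. They do not include the choice of scaling. With the medians of the arrays set equal (median centring), the median log2 fold change was 0.15 for the members and 0.16 for all genes. The interval of the fold change stayed within 1.5-fold in either direction for 70 of the 71 tested members, the exception being COX4I2, and within 2-fold for all 71. Of all 13679 genes, 9102 had an interval within 1.5-fold. The median distance from the estimate to the end of the interval was 0.15 on the log2 scale for the members and 0.28 for all genes. Of the 71 members, 51 were among the brightest 10% of all genes, those with a mean signal of 4707 or more, for which the same distance had a median of 0.14 over all 1368 such genes. The members' median coefficient of variation was 4.81% between TCI04 arrays and 6.40% between PBS arrays.

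**Figure D1:**
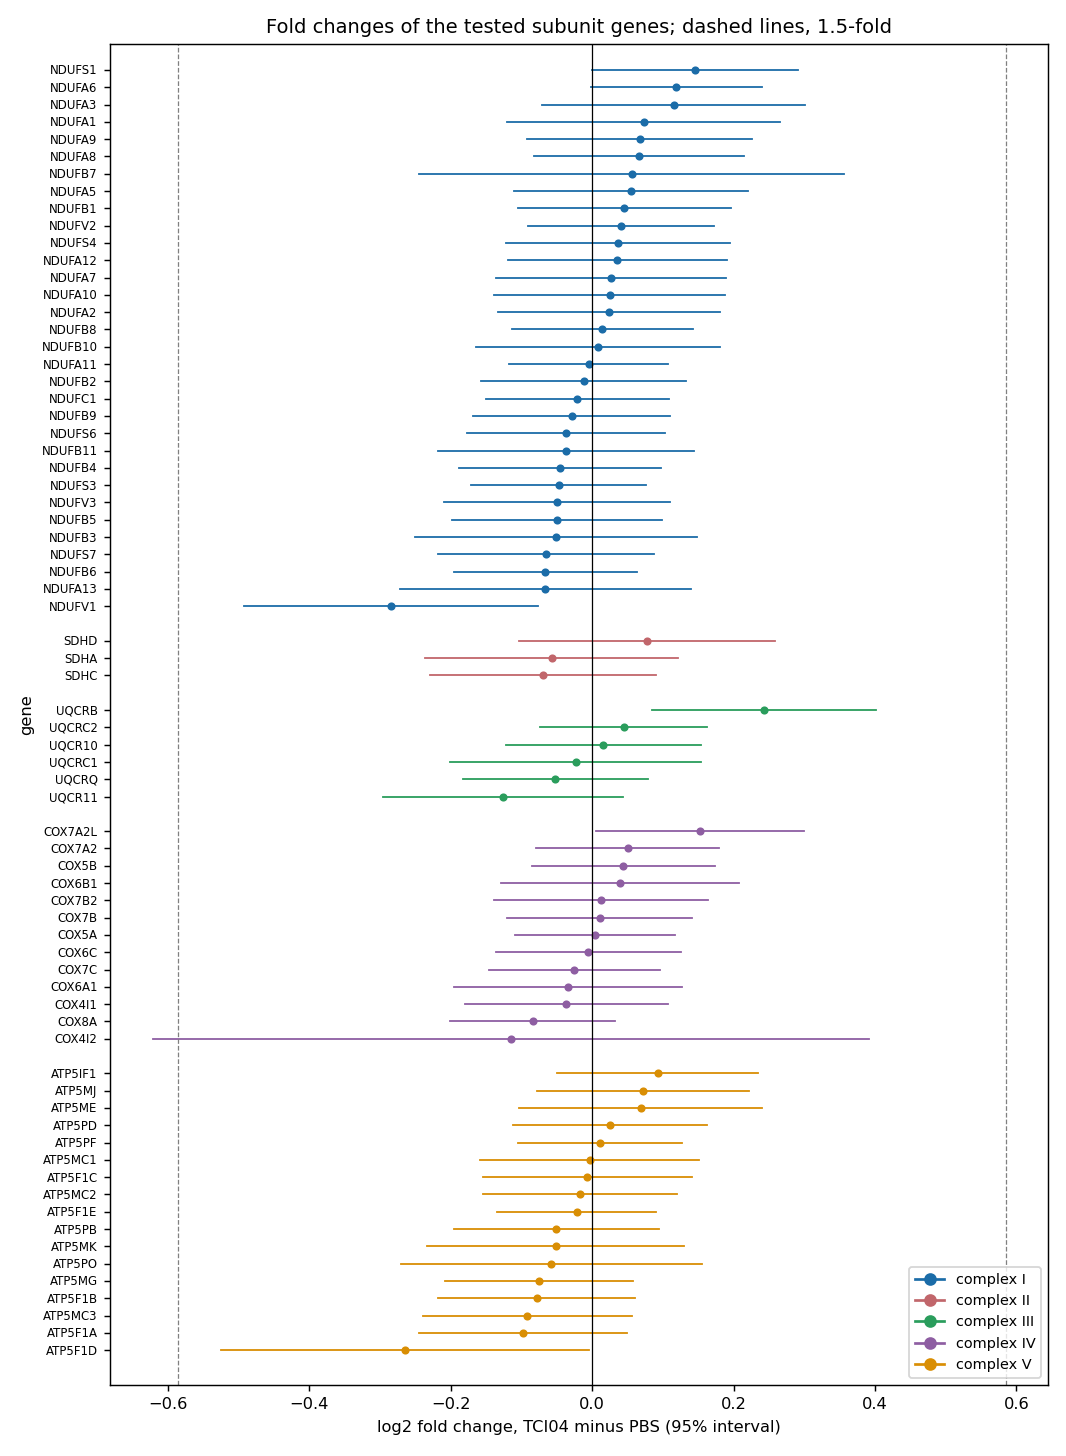
Log2 fold change of each of the 71 tested subunit genes (TCI04 minus PBS, x axis) with its 95% interval, grouped by complex (colours) and ordered by fold change; dashed lines mark 1.5-fold. All points lie between -0.28 and 0.24, and the interval of COX4I2 is the one that crosses a dashed line.

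In 5 members all arrays of one group lay beyond all arrays of the other. NDUFV1 and ATP5F1D were lower on every TCI04 array, 2 of 71 members, where 6.89% of all tested genes were separated in this way. UQCRB, NDUFS1 and NDUFA6 were higher on every TCI04 array, 3 of 71, where 6.65% of all genes were. At 2.82% and 4.23% of the members, both shares were no larger than those of all genes.

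Complex I had 32 tested members, 15 lower and 17 higher with TCI04, with a median log2 fold change of 0.01 and 28 of the 32 within 0.1 of 0. The core of its NADH-oxidising arm is formed by the flavoprotein NDUFV1, which holds the FMN and meets NADH, by NDUFV2 and by the iron-sulphur protein NDUFS1. NDUFV1 had signals of 1921, 1821 and 1509 with TCI04, against 2019, 2203 and 2150 with PBS. The TCI04 arrays were all lower, and the array of TCI04 replicate 3 was the lowest. The mean was 1750 ± 215 with TCI04 and 2124 ± 94.6 with PBS (SD, n = 3 arrays each), a log2 fold change of -0.28 (95% interval -0.49 to -0.08) that did not pass the test (limma, adjusted p = 0.697). NDUFS1 went the other way, at 2968, 3115 and 3147 with TCI04, against 2707, 2947 and 2692 with PBS. Its groups were separated by a gap that was small beside the range of the PBS arrays, and its log2 fold change was 0.15 (limma, adjusted p = 0.697). NDUFV2, the partner of NDUFV1, had nearly the same signal on all TCI04 arrays, at 5529, 5513 and 5522, against 5068, 5621 and 5433 with PBS. These values lay within the PBS range, and the log2 fold change was 0.04. The 3 neighbours of this arm therefore gave estimates of different sign, and none passed the test.

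The arm that hands electrons to ubiquinone contains the core subunits NDUFS3 and NDUFS7. NDUFS3 had 6961, 7004 and 6765 with TCI04, against 6813, 7333 and 7281 with PBS, a log2 fold change of -0.05. NDUFS7 had 1976, 1931 and 1868 with TCI04, against 1976, 1949 and 2123 with PBS, a log2 fold change of -0.07. The groups overlapped in both genes. Of the accessory subunits, 10 of 12 NDUFA genes had a higher mean with TCI04 and 2 a lower one, with log2 fold changes from -0.07 (NDUFA13) to 0.12 (NDUFA6). NDUFA6, an accessory subunit, had 8339, 8376 and 8885 with TCI04, against 7765, 8060 and 7742 with PBS. All TCI04 arrays were higher, at a mean of 8533 ± 305 with TCI04 and 7855 ± 177 with PBS (SD, n = 3 arrays each), with an adjusted p of 0.697 (limma). The NDUFB genes, whose products lie mostly in the membrane arm, numbered 11, of which 7 had a lower and 4 a higher mean, from -0.07 (NDUFB6) to 0.06 (NDUFB7). NDUFA and NDUFB genes thus differed in how many leaned each way, but all 23 log2 fold changes were at most 0.12 in size and no test was made of the families.

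Complex II had 3 tested members, with log2 fold changes from -0.07 to 0.08. SDHA, the flavoprotein that oxidises succinate, had 2477, 2517 and 2187 with TCI04, against 2297, 2634 and 2539 with PBS. SDHC, a membrane anchor of the complex, had 2435, 2302 and 2112 with TCI04, against 2371, 2452 and 2354 with PBS, a log2 fold change of -0.07 (95% interval -0.23 to 0.09). SDHD, the other membrane anchor, had 7994, 6351 and 6899 with TCI04, against 6931, 6734 and 6390 with PBS, a log2 fold change of 0.08. The groups overlapped in all 3 genes. TCI04 replicate 3 was the lowest of the 6 arrays for SDHA and SDHC, and TCI04 replicate 1 the highest for SDHD.

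Complex III had 6 tested members, 3 lower and 3 higher, with a median log2 fold change of 0.00. UQCRB, which takes part in ubiquinone binding, had the highest log2 fold change of all 71 members. Its signals were 20132, 21023 and 21286 with TCI04, against 15826, 17696 and 19380 with PBS. Every TCI04 array was higher than every PBS array, and the PBS arrays were spread over a wider range. The mean was 20814 ± 605 with TCI04 and 17634 ± 1778 with PBS (SD, n = 3 arrays each), which is 1.18-fold higher with a log2 fold change of 0.24 (95% interval 0.09 to 0.40; limma, adjusted p = 0.697). UQCR11 had the lowest log2 fold change of the complex, at 11518, 13432 and 14004 with TCI04, against 14468, 13270 and 14657 with PBS, with a mean of 12985 ± 1302 with TCI04 and 14132 ± 752 with PBS. UQCRQ, a further small subunit, had 16856, 17584 and 17782 with TCI04, against 16818, 19043 and 18341 with PBS. The groups overlapped in both. The core proteins UQCRC1 and UQCRC2 were close to 0, with log2 fold changes of -0.02 and 0.05.

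Complex IV had 13 tested members, 6 lower and 7 higher, with a median log2 fold change of 0.00 and no member with separated groups. COX4I1, the common form of the largest nuclear-encoded subunit, had 16994, 17714 and 17518 with TCI04, against 16196, 18839 and 18650 with PBS, and a log2 fold change of -0.04. COX4I2, its counterpart known from lung and from cells low in oxygen, had 82.4, 109 and 87.9 with TCI04, against 121, 81.3 and 105 with PBS. Its arrays overlapped, and its interval was the widest of all members, from -0.62 to 0.39 on the log2 scale. COX5A and COX5B, further nuclear-encoded subunits, had log2 fold changes of 0.00 and 0.04. COX5A had 15788, 15859 and 15860 with TCI04, against 15171, 16358 and 15869 with PBS, so the 3 TCI04 arrays lay inside the PBS range.

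COX7A2L, a member of the COX7A family known for its role in joining complexes III and IV into supercomplexes, had the highest log2 fold change of complex IV. Its signals were 5651, 5271 and 5945 with TCI04, against 5294, 5076 and 4792 with PBS. TCI04 replicate 2 lay just below PBS replicate 1, so that the groups overlapped. The mean was 5622 ± 338 with TCI04 and 5054 ± 252 with PBS (SD, n = 3 arrays each), a log2 fold change of 0.15 (95% interval 0.01 to 0.30; limma, adjusted p = 0.697). COX7A2, the form of this family found in most tissues, had 12425, 11430 and 12733 with TCI04, against 11906, 11393 and 12006 with PBS, a log2 fold change of 0.05. COX6A1, likewise the form of most tissues, had a log2 fold change of -0.03. COX8A had 14683, 14930 and 14552 with TCI04, against 14872, 16136 and 15834 with PBS. Only 1 of the 3 TCI04 arrays was inside the PBS range, and the log2 fold change was -0.08 (95% interval -0.20 to 0.03).

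Isoforms of complex IV subunits known from muscle or testis were mostly too dim to test. COX6A2 and COX7A1, the heart and skeletal muscle forms, and COX6B2 and COX8C, known from testis, were below the filter. COX8C had signals of 5.31, 1.08 and 0.807 with TCI04, against 14.4, 20.1 and 6.98 with PBS, and COX7A1 had 1.78, 2.82 and 3.12 with TCI04, against 2.75, 7.41 and 9.80 with PBS. At these signals a difference is not measurable. COX7B2, also known from testis, was not dim: its probe set had 6756, 6777 and 7513 with TCI04, against 6450, 7240 and 7169 with PBS, with no difference between the groups beyond their spread (log2 fold change 0.01, 95% interval -0.14 to 0.16). It has 1 probe set, and COX7B2 is named here outside the rule for named genes, after its values were seen. The fifth member below the filter was ATP5MF of complex V, for which only 1 dim probe set carried a single symbol.

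Complex V had 17 tested members, 12 lower and 5 higher, with a median log2 fold change of -0.02. The 5 chains of the catalytic F1 head all had a lower mean with TCI04, from -0.26 for ATP5F1D to -0.01 for ATP5F1C. ATP5F1D, the delta chain in the central stalk, had 1743, 1716 and 1282 with TCI04, against 2063, 1836 and 1762 with PBS. All TCI04 arrays were lower, and TCI04 replicate 3 lay farthest down. The mean was 1580 ± 258 with TCI04 and 1887 ± 157 with PBS (SD, n = 3 arrays each), a log2 fold change of -0.26 (limma, adjusted p = 0.697). The alpha chain ATP5F1A had 21060, 21842 and 23635 with TCI04, against 21838, 24476 and 24919 with PBS, a log2 fold change of -0.10 (95% interval -0.24 to 0.05). The beta chain ATP5F1B, which carries the catalytic sites, had 16314, 17306 and 16130 with TCI04, against 16173, 17805 and 18612 with PBS, a log2 fold change of -0.08. In both chains the groups overlapped, because the array of PBS replicate 1 lay among the TCI04 arrays.

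The c subunit, which forms the rotating ring in the membrane, is encoded by ATP5MC1, ATP5MC2 and ATP5MC3, whose mature proteins are the same. ATP5MC3 had 17052, 17430 and 17473 with TCI04, against 16681, 19937 and 18888 with PBS, and a log2 fold change of -0.09. ATP5MC2 and ATP5MC1 had log2 fold changes of -0.02 and 0.00. ATP5MC1 averaged 4053 ± 297 with TCI04 and 4059 ± 171 with PBS (SD, n = 3 arrays each). None of the 3 genes had separated groups in its brightest probe set. A dim probe set of ATP5MC2 had 22.9, 24.0 and 21.6 with TCI04, against 43.8, 35.7 and 41.7 with PBS. Its TCI04 arrays were all lower, but it was below the filter and was not tested. The 4 tested genes of the outer stalk and coupling subunits ran from -0.06 (ATP5PO) to 0.02 (ATP5PD), and the 4 small membrane subunits from -0.08 (ATP5MG) to 0.07 (ATP5MJ). ATP5IF1, the inhibitor that stops the enzyme from splitting ATP, had 2880, 2958 and 3004 with TCI04, against 2640, 2759 and 2896 with PBS. It had the highest log2 fold change of the complex, 0.09 (95% interval -0.05 to 0.23), with 1 TCI04 array inside the PBS range.

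**Figure D2:**
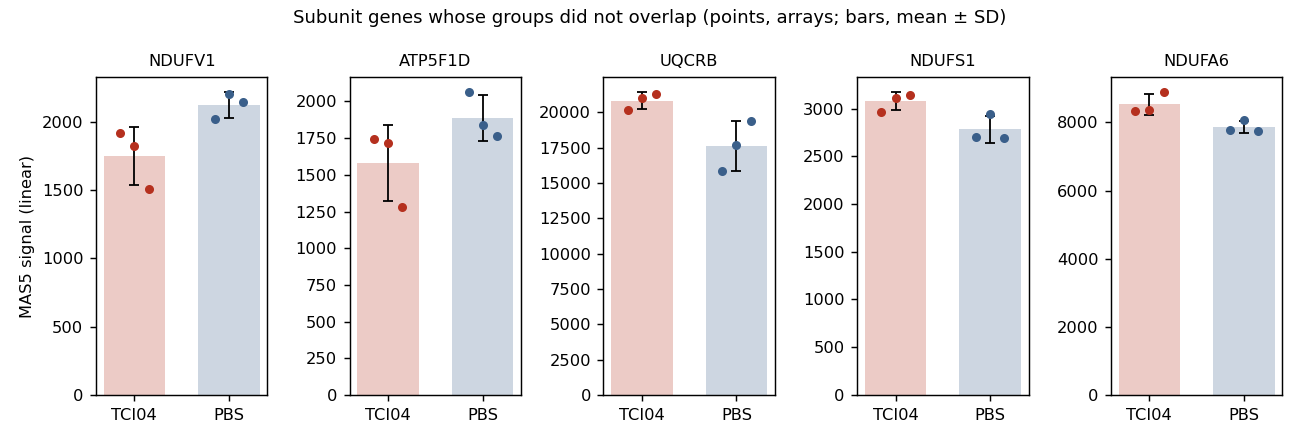
MAS5 signal (linear y axis, own scale per gene) of the 5 subunit genes whose groups did not overlap; points are arrays and bars the mean ± SD of 3 arrays. NDUFV1 and ATP5F1D were lower on all TCI04 arrays and UQCRB, NDUFS1 and NDUFA6 higher on all of them, with fitted log2 fold changes from -0.28 to 0.24.

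No other tested probe set of these 5 genes had separated groups. UQCRB has 3 further tested probe sets, with log2 fold changes of 0.12, -0.06 and 0.04 and overlapping groups. The other tested probe sets of NDUFS1, 4 in all, ran from -0.31 to 0.15, with overlapping groups. The second probe set of NDUFA6 gave 0.01, and that of ATP5F1D also gave 0.01. The second probe set of NDUFV1 was below the filter. Of the 36 members with several tested probe sets, 16 had the same sign in all of them and 20 did not. Among the 62 tested probe sets that were not the brightest of their gene, log2 fold changes ran from -0.20 to 0.16 at a mean signal of 500 or more (31 probe sets) and from -0.49 to 0.70 below it (31 probe sets). Of these 62, 2 had separated groups with the TCI04 arrays lower (of SDHC and COX4I1), where 8.19% of all 32746 tested probe sets did, and 4 with the TCI04 arrays higher (of NDUFB7, NDUFV3, COX5B and ATP5IF1), where 5.35% did. The smallest adjusted p among the 62 was 0.697 (limma).

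**Figure D3:**
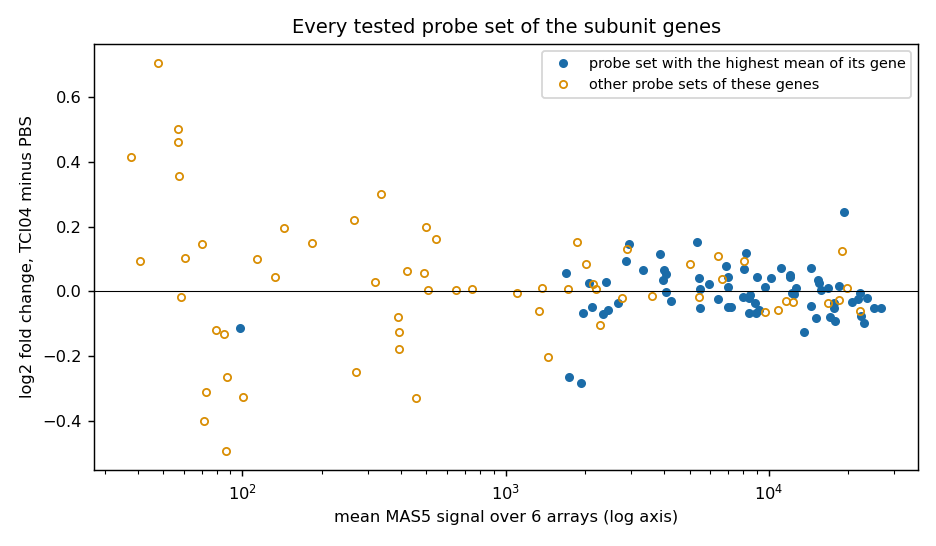
Log2 fold change (TCI04 minus PBS, y axis) against mean signal over the 6 arrays (log x axis) for all 133 tested probe sets of the subunit genes; filled points are the brightest probe set of each gene and open points the others. Fold changes beyond 0.3 in size are open points at a mean signal under 500.

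The members' median level differed more among the PBS arrays than between the groups. Each member's log2 value was set against its mean over the PBS arrays, and the median over the 71 members was -0.04, 0.01 and 0.01 on TCI04 replicates 1, 2 and 3, against -0.09, 0.05 and 0.03 on PBS replicates 1, 2 and 3. PBS replicate 1 was the lowest of the 6 arrays for 36 of the 71 members, and the lowest of the 3 PBS arrays for 57 of 71. This held in 26 of 32 members of complex I, 5 of 6 of complex III, 10 of 13 of complex IV and 15 of 17 of complex V, but in 1 of 3 of complex II. The medians of the brightest 10% of all genes were -0.02, 0.00 and 0.04 on the TCI04 arrays, against -0.06, 0.03 and 0.03 on the PBS arrays, so that PBS replicate 1 was low for bright genes as a whole. The median signal over all probe sets was 58.9, 59.4 and 59.8 on the TCI04 arrays, against 74.3, 64.0 and 64.8 on the PBS arrays. It was thus highest on PBS replicate 1, and lower on every TCI04 array than on every PBS array. The part of these differences in the members' shared deviation was not tested.

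Without PBS replicate 1, 17 of 71 members (23.9%) were lower on all TCI04 arrays than on both remaining PBS arrays, where 13.6% of all genes were, and the members' median log2 fold change was -0.04. Without PBS replicate 2, in contrast, the median was 0.03. The smallest adjusted p of a member was 0.722 without PBS replicate 1 (limma). TCI04 replicate 3 stood apart in another measure, the ratio of the 3′ to the 5′ control probe set of ACTB, an index of RNA integrity, which was 1.71, 1.70 and 3.33 on the TCI04 arrays, against 1.64, 1.72 and 1.64 on the PBS arrays. The same ratio of GAPDH was 0.973, 1.08 and 1.21 on the TCI04 arrays, against 0.984, 1.07 and 1.05 on the PBS arrays. TCI04 replicate 3 was the lowest of the 6 arrays for 11 of 71 members, NDUFV1, ATP5F1D, SDHA and SDHC among them, and the highest for 18, and the median of complex II on it was -0.18. Without it, the log2 fold change of NDUFV1 was -0.18 and that of ATP5F1D -0.12. With both this array and PBS replicate 1 left out, 29 of 71 members (40.8%) were lower on both TCI04 arrays, where 21.9% of all genes were, and still 0 passed the test (limma, smallest adjusted p = 0.527). This pair was chosen after the data were seen. PBS replicate 1 was the lowest PBS array for 57 of the 71 members, so leaving it out was bound to raise such counts. The shares of all genes are not matched for this: the median deviation on that array was -0.09 for the members and 0.00 for all genes.

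**Figure D4:**
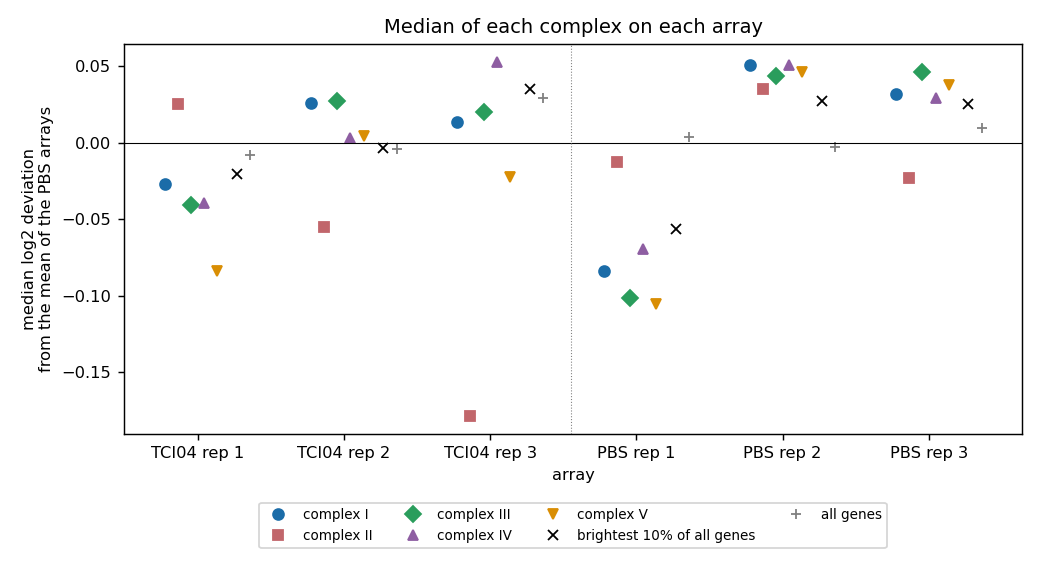
Median log2 deviation from the mean of the PBS arrays (y axis) on each of the 6 arrays (x axis) for complexes I to V, for the brightest 10% of all genes and for all genes. Complexes I, III, IV and V are low on PBS replicate 1 and high on PBS replicates 2 and 3, and complex II is lowest on TCI04 replicate 3, at -0.18.

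Genes that work with the subunits were also without a called difference. Of 11 tested electron carriers, adenine nucleotide and phosphate carriers and similar proteins outside the rule, 0 passed, 7 being lower and 4 higher, with a median log2 fold change of -0.05. SLC25A3, which carries phosphate for ATP synthesis, had 22631, 25224 and 25127 with TCI04, against 24642, 27279 and 27259 with PBS. Its groups overlapped through PBS replicate 1. CYC1, the cytochrome c1 of complex III, had a log2 fold change of -0.11 and the adenine nucleotide carrier SLC25A5 one of -0.08. COXFA4, once named NDUFA4 and now counted with complex IV, had 10757, 10522 and 10929 with TCI04, against 9186, 10591 and 9676 with PBS, a log2 fold change of 0.13 (limma, adjusted p = 0.697).

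Of 47 assembly factors, 0 passed, 23 being lower and 24 higher, with a median log2 fold change of 0.00. COX16, COX18 and COX19, which act in building complex IV, had the smallest p-values of the list, and all 3 were higher on every TCI04 array, 3 of 47 or 6.38%, a share like the 6.65% of all genes. COX16 had 7600, 6956 and 7909 with TCI04, against 6765, 6366 and 6470 with PBS. COX18 had 1681, 1580 and 1823 with TCI04, against 1341, 1484 and 1560 with PBS. COX19, which was dim, had 141, 171 and 175 with TCI04, against 121, 113 and 123 with PBS. Their log2 fold changes were 0.19, 0.21 and 0.41, each with an adjusted p of 0.697 (limma).

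Of 16 nuclear regulators of mitochondrial genes and proteins of mitochondrial DNA transcription and replication, 0 passed, 12 being lower and 4 higher, with a median of -0.06. GABPB1, a subunit of the GA-binding protein, had 1704, 1829 and 1901 with TCI04, against 1640, 1595 and 1640 with PBS, all TCI04 arrays being higher (log2 fold change 0.15). PPARGC1A, a coactivator of mitochondrial biogenesis, had 111, 90.4 and 131 with TCI04, against 118, 136 and 149 with PBS, and TWNK, the mitochondrial DNA helicase, a log2 fold change of -0.11. Of 14 tested enzyme subunits of the citric acid cycle and pyruvate dehydrogenase, 0 passed, 8 being lower and 6 higher, with a median of 0.00. OGDH, a subunit of the oxoglutarate dehydrogenase complex, had 725, 621 and 272 with TCI04, against 684, 778 and 693 with PBS, a log2 fold change of -0.52 with TCI04 replicate 3 far below the other 5 arrays. IDH3G, a subunit of NAD-dependent isocitrate dehydrogenase, had a log2 fold change of -0.31 and SUCLA2, a subunit of succinyl-CoA ligase, one of 0.19.

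The cells were checked against markers of their line. All 6 markers of mesenchymal triple-negative cells (VIM, CD44, CAV1, AXL, PLAU and MSN) were above the filter, with mean signals from 5111 (PLAU) to 28960 (VIM). Of the luminal or epithelial markers, PGR and CDH1 were below it. ESR1 was just above it, at 39.6 beside a filter signal of 33.9, while EPCAM at 405 and GATA3 at 817 were well above it. Of the markers of other cell types, COL1A1, DCN, CD3E, CD79A and PECAM1 were above the filter and LUM, PDGFRB, PTPRC, LYZ, CDH5 and VWF below it. Being above the filter is not a detection call, since the files used here hold none.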

How the data were processed

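Total RNA of 3 samples given TCI04 and 3 given PBS was hybridised to Affymetrix arrays. The deposited values are linear intensity values. MAS5, which summarises the probes of a probe set on each array, is named in the submitters' processing notes; its version and detection calls are not given in the sources used here. Each array's deposited values had a mean of 500.1 once 2% were trimmed at either end. Symbols came from the platform annotation, and the symbols of the members matched the RefSeq gene table with 0 changed.

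Deposited intensity values were converted to log2(signal + 10.96), the 20th percentile of all values, a scale that understates changes of dim probe sets. Control probe sets (62 of 54675) and those with a mean below the 40th percentile (a signal of 33.9) were left out. The 32746 others were fitted with limma 3.58.1 under R 4.3.3 (lmFit and trended eBayes, two-sided tests), with Benjamini-Hochberg adjustment over all of them and intervals from 10.5 degrees of freedom. The steps were tested on simulated data. For counts over genes, the probe set with the highest mean stood for each of 13679 genes. Probe sets with several symbols (15) and 3 non-coding symbols were left out. The precision is limited by the 3 arrays per group.

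The members and lists were chosen with earlier results of these data known. Members named were the 3 with the smallest p in each complex and core or isoform genes listed by role. In each related list, the 3 with the smallest p were named. Alternatives were other scalings, offsets, filters, probe set choices and variance settings, a replicate block, and left-out arrays.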

Additional observations from a re-analysis of the deposited data

How the results depend on the processing

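Under 17 alternatives, 0 members passed the adjusted threshold, and the smallest adjusted p of a member was 0.280 (limma, median centring; 0.345 with a replicate block, 0 members past it). Arrays with the same replicate number had correlations of deviations of at most 0.0619. In this balanced design the replicate block cannot change fold changes or the separation of groups. Only the count past the threshold could have moved, and it stayed at 0. The smallest adjusted p of a member (limma) was 0.345 with the block and 0.697 without it. Of the 30 named members, 6 kept their sign throughout (NDUFV1, ATP5F1D, NDUFA6, COX7A2L, COX7A2 and ATP5IF1), 7 turned under median centring alone, which lifts all genes, and 17 turned under another alternative. Signal over background limits the dim isoforms, and 3 arrays per group limit all. The causes below were not tested, unless the setting itself gives them.

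Median centring moved the median of all genes to 0.157 and that of the members to 0.154, so the members stayed near the other genes. It gave medians of 0.171, 0.103, 0.156, 0.164 and 0.138 for complexes I to V, 2 members with a lower mean, and 0 lower and 22 higher with separated groups (31.0% of members, 29.2% of all genes). It turned ATP5F1A (0.0620), ATP5F1B (0.0814), ATP5F1C (0.153), ATP5MC1 (0.156), ATP5MC2 (0.143), ATP5MC3 (0.0682), COX4I1 (0.123), COX4I2 (0.0451), COX6A1 (0.13), COX8A (0.0756), NDUFS3 (0.113), NDUFS7 (0.0940), SDHA (0.10), SDHC (0.0904), UQCR11 (0.0340), UQCRC1 (0.137) and UQCRQ (0.108) to higher. Quantile normalization gave 5 lower members with separated groups (7.04%, against 5.29% of all genes) and a median of all genes of 0.0159. It turned ATP5F1C (0.000768), COX4I1 (0.00985), COX4I2 (0.00720) and COX6A1 (0.0192). Without a filter the median of all genes was -0.0210.

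Averaging all tested probe sets of a gene gave 1 higher member with separated groups (1.41%, against 4.97% of all genes), medians of 0.0632 for complex II and -0.0330 for all genes, and turned ATP5F1C (0.0516), ATP5MC3 (0.0120), COX4I1 (0.0467), COX5B (-0.0352), NDUFS1 (-0.0413) and SDHC (0.0632). Without _x_at and _s_at probe sets, 55 members remained, complex II had a median of 0.0697, and ATP5F1C (0.302), COX5B (-0.331), NDUFS1 (-0.00611), SDHC (0.0622), UQCRB (-0.0601) and UQCRC2 (-0.0193) turned.

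With each array left out in turn, 27 to 54 members had a lower mean, 2 to 17 were lower and 4 to 7 higher with separated groups. That is 2.82% to 23.9% lower and 5.63% to 9.86% higher, against 11.1% to 13.6% and 9.93% to 13.3% of all genes; the share lower passed 5.63% only without PBS replicate 1. Medians ran from -0.0423 to 0.0252 for the members, from -0.0405 to 0.0297 for complex I, from -0.0830 to 0.00610 for complex II, from -0.0688 to 0.0345 for complex III, from -0.0401 to 0.0282 for complex IV, from -0.0688 to 0.00516 for complex V and from -0.00769 to 0.00626 for all genes. Single members that turned ran from -0.0624 to 0.0418 (ATP5F1C), -0.0623 to 0.0364 (ATP5MC1), -0.0688 to 0.0293 (ATP5MC2), -0.107 to 0.00219 (COX4I1), -0.255 to 0.000945 (COX4I2), -0.0249 to 0.0294 (COX5A), -0.118 to 0.0128 (COX6A1), -0.00116 to 0.0734 (NDUFV2), -0.114 to 0.00610 (SDHA), -0.0134 to 0.152 (SDHD) and -0.106 to 0.0252 (UQCRC1). Of the 30 named members, 25 moved by over 1.5 times when 1 array was left out, among them, without a change of sign, UQCR11 (-0.183 to -0.0417), ATP5F1B (-0.135 to -0.0339), ATP5MC3 (-0.164 to -0.0356), ATP5F1A (-0.157 to -0.0611), SDHC (-0.117 to -0.0146), ATP5F1D (-0.341 to -0.122) and NDUFV1 (-0.355 to -0.182). Leaving out both TCI04 replicate 3 and PBS replicate 1, chosen after seeing the data, gave 29 lower and 5 higher members with separated groups (21.9% and 17.6% of all genes), medians of -0.0529 for complex I and -0.0739 for complex IV, and turned COX4I2 (0.0345), COX5A (-0.0260), COX5B (-0.000808) and NDUFV2 (-0.00125).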

Other observations

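Subunits encoded by mitochondrial DNA lie outside the rule, and the list was added after the files were seen. The array has 10 tested probe sets for 7 of these genes. The mean was lower with TCI04 for all 10, as it was for 56.2% of all tested probe sets, and the median log2 fold change of the 7 genes was -0.18, with a range from -0.20 to -0.13 when single arrays were left out. COX1, the catalytic subunit of complex IV, had 34540, 37215 and 38600 with TCI04, against 40402, 41222 and 43054 with PBS. The TCI04 arrays were all lower, with a log2 fold change of -0.18 (95% interval -0.30 to -0.05). ND2, a membrane subunit of complex I, had 28118, 30398 and 26425 with TCI04, against 30850, 33707 and 31914 with PBS, again all lower. COX2, which receives electrons from cytochrome c, was lower on every TCI04 array in both of its probe sets (log2 fold changes -0.17 and -0.18), as was ATP6 in its brighter probe set (-0.11). In all, 5 of the 10 probe sets had separated groups, where 8.19% of all tested probe sets were lower in this way. They belong to COX1, ND2, COX2 and ATP6. All 10 probe sets share the same arrays and scaling, and those of COX2 also share a gene. The counts are therefore not of independent observations. Of the 1368 genes in the brightest 10%, 55 were lower in this way. The groups of ND4, ND6, COX3 and the dim probe set of ATP6 overlapped. None passed the test (limma, smallest adjusted p = 0.697). The values depend on the scaling. In the main fit the median log2 fold change was -0.18 for the 7 genes and 0.00 for all genes. After quantile normalization it was -0.04 for the 7 genes, against 0.02 for all genes. After median centring it was -0.02 for the 7 genes, against 0.16 for all genes. Many of these probe sets are among the brightest of the array, where saturation was not tested.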
